A study of Mus musculus with 4 samples.

Results

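Colonies of mouse spleen cells that had been kept in plain medium were compared with monolayer cells that had been kept in the same medium, on 1 Affymetrix expression array each. The colony cells are adherent spleen cells that heap up in compact clusters on the dish, called SACCs, and the controls are adherent spleen cells left as a flat layer. All cells grew out of spleen pieces of C57BL/6J mice, placed in RPMI medium with fetal bovine serum that was renewed every few days. The labels give no age, sex or number of animals and do not say whether colony and monolayer cells came from the same spleen. The comparison covered all 45037 probe sets on 2 of the 4 arrays of the study, with no selection on values. The other 2 arrays are SACCs moved to serum-free medium for mouse embryonic stem cells (ES medium) once colonies had begun to form and monolayer cells in plain medium that the labels name as their reference. In that pair medium and cell state differ together. These arrays are used below as the ES pair, to show where the plain pair differed from it.

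Spleen cultures of this kind hold macrophages, which stick to plastic and take up debris and lipid, and stromal cells such as fibroblasts, which lay down collagen and make cytokines and growth factors for the blood cells around them. Fibroblasts are a known source of interleukin 6 (IL-6), leukemia inhibitory factor and interleukin 11, which share the receptor subunit gp130. The hypoxia-inducible factor, a transcription factor that is stabilised when oxygen is short, switches on a well-known set of targets in nearly all cell types.

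Values are log2 levels, and a ratio is the SACC level minus the control level, so that 1 stands for a 2-fold higher level in SACCs. The median level was 4.35 on the SACC array and 4.34 on the control array, and levels described as above the median are relative to these. With 1 array a side there is no replicate and no test, and every difference below is a description of these 2 arrays. Of the 45037 probe sets 2111 (4.69%) were at least 2-fold higher and 1782 (3.96%) at least 2-fold lower in SACCs, a combined 8.64%. For each gene the probe set brightest on average over the pair was used, which gave 19747 genes with a symbol. Of these, 1180 (5.98%) were at least 2-fold higher in SACCs and 1031 (5.22%) at least 2-fold lower, a combined 11.2%. The median gene had a ratio of -0.02, and percentiles 2.5 and 97.5 of the ratios were -1.47 and 1.57. In the ES pair 6.49% of genes were at least 2-fold higher and 4.04% at least 2-fold lower, together 10.5%.

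**Figure D1:**
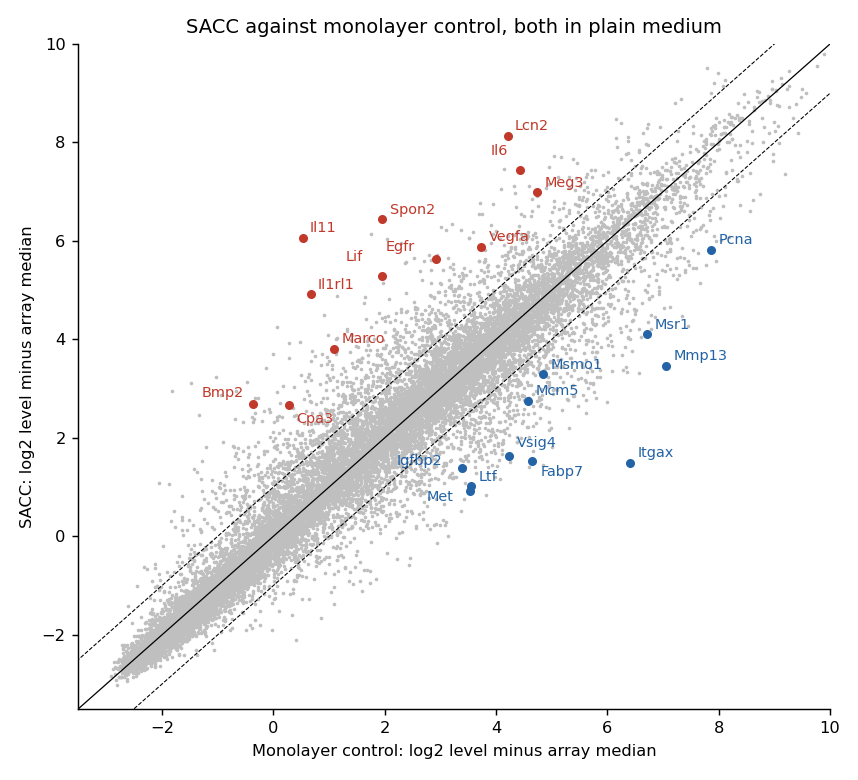
Each point is a gene, with its log2 level minus the array median on the monolayer control array (x) and on the SACC array (y), both in plain medium; the solid line marks equal levels and the dashed lines a 2-fold difference. Il11, Lif, Il6 and Lcn2 lay far above the upper line, and Itgax, Mmp13 and Fabp7 far below the lower one.

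Markers of stroma and of macrophages were high on both arrays, in different amounts. Of 22 fibroblast genes, 20 were at least 2-fold higher in SACCs, with a median ratio of 1.58 and a summed linear level of 103900 against 47040 in the control. Macrophage genes went the other way, with 23 of 28 at least 2-fold lower, a median ratio of -1.79 and a summed level of 38890 against 105000. Csf1r, the receptor that macrophages need for survival, was still at 11.09 in SACCs against 12.73 in the control. Fibroblast and macrophage medians were similar in the ES pair (1.23 and -1.71). In such bulk RNA, fewer cells of a type cannot be told apart from less RNA per cell. Every list below was read on arrays that differed in this makeup, and its part in the other differences was not tested. Erythroid genes were below the median on both arrays for 7 of 10 members, and T and NK cell genes for 9 of 20, where 35.5% of all 19747 genes were. The pluripotency factor Pou5f1 lay at 2.48 and 2.55, below both medians.

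The 15 highest ratios among genes at least 4-fold above an array median were led by cytokines and secreted proteins. Il11, a cytokine of the IL-6 family, was at 10.42 in SACCs and 4.87 in the control, 6.07 and 0.53 above the medians, a 46.9-fold difference with a ratio of 5.55 here and 2.32 in the ES pair. Spon2, a secreted matrix protein, was at 10.79 against 6.30, a ratio of 4.49 (2.74 in the ES pair). Il1rl1, the IL-33 receptor ST2, was at 9.27 against 5.01, a ratio of 4.26 (1.83). These 3 were high on both SACC arrays, with a larger difference in the plain pair. The lipocalin Lcn2, which binds bacterial iron carriers, was at 12.49 against 8.55, 15.3-fold higher here and lower in SACCs of the ES pair (ratio -1.15). Sod3, the extracellular superoxide dismutase, was at 10.31 against 6.64, with ratios of 3.67 and 1.67. The chemokine Cxcl3, the acid-sensing channel Asic3, Pcsk5, Enpep, Itm2a, Nts, H19 and Hs3st1 were about as high or higher in the ES pair, and Lgi2 and Snhg11 were lower there (3.08 and 1.70 against 4.40 and 3.83).

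The 15 lowest ratios included many leukocyte genes. Itgax, the integrin CD11c of dendritic cells and some macrophages, was at 5.85 in SACCs and 10.75 in the control, 29.9-fold lower (ratio -4.90, and -3.03 in the ES pair). Mmp13, a collagenase, was at 7.82 against 11.40, 12.0-fold lower, against an ES-pair ratio of -0.94. Folr2, a folate receptor of tissue macrophages, was at 7.09 against 10.33, 9.45-fold lower. The folate receptor was lower in the ES pair too (-1.88), and for Il7r, Rgs1, Cytip, Arhgap25, Stap1 and Lair1 the ES-pair ratios ranged from -3.85 to -2.43. Fabp7, a fatty acid-binding protein, was at 5.88 against 8.98, a ratio of -3.10, against 0.95 in the ES pair.

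To isolate what the plain pair showed and the ES pair did not, genes were counted that were at least 2-fold higher here with an ES-pair ratio below 0.5, and the reverse for lower genes. There were 238 such genes on the higher side (1.21% of all) and 283 on the lower side (1.43%). Of the 238, 148 were at least 4-fold above the median on an array of the pair, and of the 283, 202. Signs were opposite in the 2 pairs for 31.7% of all genes. At a fold of 4, 27 higher and 22 lower genes were left. The pairs share no array, and the difference between them has no replicate, so it was not tested.

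**Figure D2:**
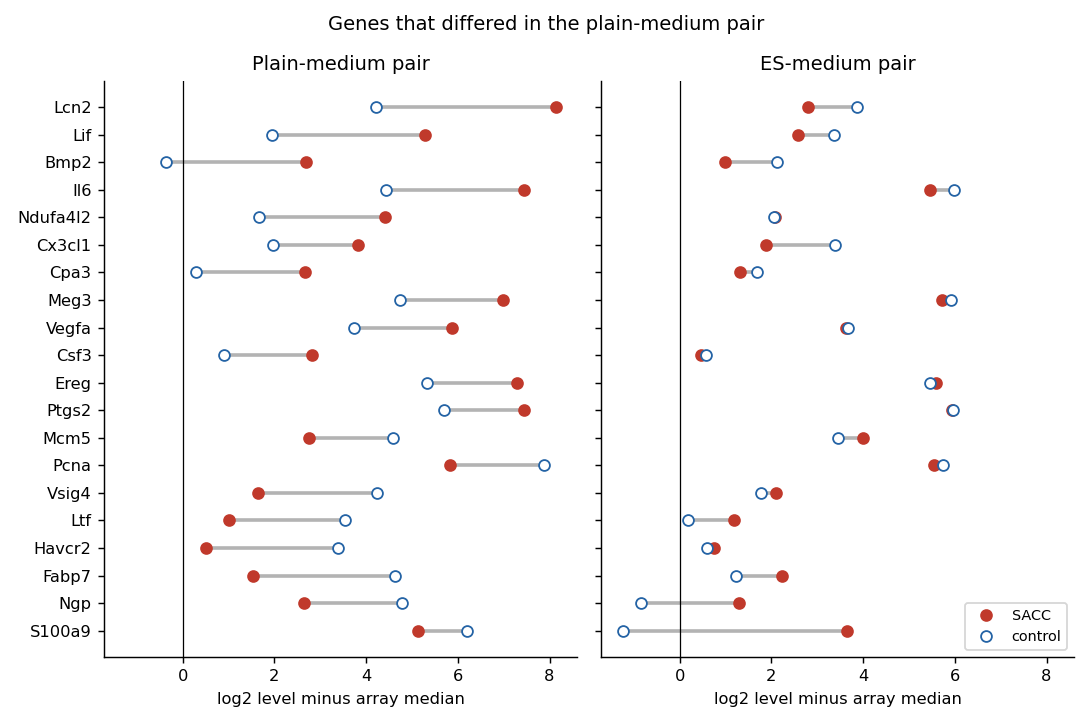
Log2 level minus the array median (x) of 20 genes on the SACC array (filled) and the control array (open) of the plain pair (left) and the ES pair (right); each grey line spans a ratio. Lcn2, Lif, Il6 and Bmp2 were higher in SACCs on the left and lower on the right, and S100a9 and Ngp were lower on the left and higher on the right.

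Ligands of the gp130 family were among the highest genes of the plain pair. Of 18 measured genes of the IL-6 family and its signalling chain, 8 were at least 2-fold higher and 2 at least 2-fold lower, against 2 and 3 in the ES pair. The median ratio was 0.62 here and 0.10 in the ES pair, and 16 of 18 ratios were larger here, against 48.3% of all genes. The promoters of Il6 and Lif, whose ratios turned between the pairs, are shown with the match that was searched for, in capitals. For Il6 it is the kappa B element bound by NF-kappa B (GGGA, any base, TTTCC), and for Lif the AP-1 element TGANTCA. Both windows run from 250 bases before to 50 after the RefSeq start on GRCm38.p6, Il6 at chr5:30012864-30013163 and Lif at chr11:4257318-4257617, both on the plus strand.
Il6: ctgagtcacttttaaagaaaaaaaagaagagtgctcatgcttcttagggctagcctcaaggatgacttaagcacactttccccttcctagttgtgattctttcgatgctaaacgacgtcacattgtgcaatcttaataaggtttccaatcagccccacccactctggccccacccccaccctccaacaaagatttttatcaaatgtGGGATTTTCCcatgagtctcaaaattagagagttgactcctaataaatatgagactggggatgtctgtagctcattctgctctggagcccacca
Lif: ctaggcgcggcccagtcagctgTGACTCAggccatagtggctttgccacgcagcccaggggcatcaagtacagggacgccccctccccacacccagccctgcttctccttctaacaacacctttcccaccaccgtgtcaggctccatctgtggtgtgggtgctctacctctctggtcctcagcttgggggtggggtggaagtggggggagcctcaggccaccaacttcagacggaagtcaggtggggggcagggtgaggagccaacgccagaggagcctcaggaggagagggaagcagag
The Il6 match begins at position -44 and the Lif match at -228 from the start, and neither overlaps another searched motif. On both strands the kappa B letters were found in 1 of the 15 promoters that RefSeq listed for the 18 genes and in 0.466% of all 27025 genes, and the AP-1 letters in 4 of 15 (26.7%) and in 8.97% of all. In lists described below, the kappa B letters were in 0 of 13 acute phase promoters and 3 of 17 (17.6%) of NF-kappa B targets and regulators. A match describes the letters and does not show binding.

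Among the ligands, Il6, which drives acute phase responses, was at 11.80 in SACCs and 8.77 in the control, 7.45 and 4.43 above the medians. This is an 8.17-fold higher level (ratio 3.03). In the ES pair it was at 9.98 in SACCs and 10.57 in the control, a ratio of -0.59, so the control of that pair lay above both its SACC array and the plain control. Lif, which keeps mouse embryonic stem cells undifferentiated, was at 9.64 against 6.29, 10.2-fold higher (ratio 3.35), and at 7.10 against 7.95 in the ES pair (-0.85). Both cytokines were thus highest on the SACC array in plain medium, relative to the array medians. Levels on arrays of different pairs come from tables that appear to have been normalized separately. Clcf1, a ligand of the ciliary neurotrophic factor receptor, was at 7.84 against 6.23 (ratio 1.61). Ctf1, cardiotrophin, was at 6.33 against 5.28 (1.05). The exception was oncostatin M, Osm, a product of macrophages, at 5.88 against 7.17 (-1.29).

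Receptors and signal carriers of the family differed less. Osmr, the oncostatin M receptor, was at 10.86 against 8.84 (ratio 2.02, and 0.53 in the ES pair). Il6st, which encodes gp130, was at 10.38 against 9.18 (1.2). For Osmr 2 of 3 probe sets and for Il6st 3 of 4 had a ratio above 0. Il6ra, the IL-6 binding receptor chain, was lower in SACCs, at 5.31 against 6.49 (-1.18). The transcription factor Stat3 had a ratio of 0.36, its kinases Jak1 and Jak2 had -0.17 and 0.68, and the feedback inhibitor Socs3 was at 9.47 against 9.25 (0.22). No value of the signalling chain below the receptors reached a 2-fold difference.

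Acute phase proteins had a larger median ratio than the IL-6 family. Of 16 measured, 10 were at least 2-fold higher in SACCs and 1 lower, with a median ratio of 1.49 (0.55 in the ES pair). Their summed linear level was 20860 in SACCs and 6381 in the control, against 27350 and 19070 in the ES pair, so the plain control was lowest. C3, the central complement protein, was at 11.20 against 8.99 (ratio 2.21), the copper oxidase Cp at 7.92 against 5.85 (2.07) and the lipopolysaccharide-binding protein Lbp at 8.89 against 6.91 (1.98). These 3 also had positive ratios in the ES pair. Saa3, the serum amyloid A of inflamed tissue, was at 13.24 against 11.66 (1.58, and 0.19 in the ES pair), and the pentraxin Ptx3 at 9.26 against 7.68 (1.58, and -0.27). In the ES pair Saa3 was at 14.06 against 13.87 and Ptx3 at 9.55 against 9.82. Relative to the array medians, both were lowest on the plain control. Hp, haptoglobin, had 1.87 here and 3.80 in the ES pair. Il1rn, the interleukin 1 receptor antagonist, was lower, as macrophage genes were, at 7.42 against 9.72 (-2.30).

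Targets and feedback regulators of NF-kappa B were less uniform. Of 22 measured, 6 were at least 2-fold higher and 1 lower, with a median ratio of 0.28, and 18 had a larger ratio than in the ES pair, whose median was -0.26. Csf3, the granulocyte colony-stimulating factor, was at 7.16 against 5.24 (ratio 1.92, and -0.18 in the ES pair). Nfkbiz, a nuclear cofactor needed for Il6 and Lcn2 transcription, was at 10.19 against 8.69 (1.5, and -0.33). Sod2, the mitochondrial superoxide dismutase, was at 11.20 against 9.83 (1.37). The other members at or above 2-fold were Lcn2, Saa3 and Ptx3, given above. Rel, a leukocyte subunit of NF-kappa B, had a ratio of -1.07. Tnf, an activator of the pathway made by macrophages, was at 5.33 against 6.52 (-1.19).

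Chemokine and chemokine receptor genes differed in both directions. Of 20 CXC chemokine and receptor genes, 5 were at least 2-fold higher and 6 lower, and of 21 CC and CX3C genes, 3 and 7. The neutrophil attractant Cxcl1 was at 9.74 against 6.98 (ratio 2.76, and 0.56 in the ES pair). Ppbp, a platelet chemokine, was at 8.83 against 6.40 (2.43, and -0.09), and the decoy receptor Ackr3 at 7.13 against 5.79 (1.34, and 0.11). Cx3cl1, the membrane-bound chemokine fractalkine, was at 8.18 against 6.32, 3.63-fold higher, and in the ES pair at 6.40 against 7.98 (-1.58). Its receptor Cx3cr1, carried by monocytes and macrophages, was lower in both pairs (-2.01 and -1.82). The ligand therefore turned between the pairs and the receptor did not. Ccr3, the eosinophil eotaxin receptor, was at 3.70 against 5.62, a ratio of -1.92 where the ES pair had -0.23, although its SACC value lay below the median.

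Prostaglandin genes differed in both directions. Ptgs2, the inducible cyclooxygenase, was at 11.79 against 10.05 (ratio 1.74, and -0.11 in the ES pair). Ptges, the inducible prostaglandin E synthase, was at 8.60 against 6.09 (2.51, and 1.34), and Pla2g4a, the phospholipase that frees arachidonic acid, at 10.67 against 9.34 (1.33, and 0.69). Hpgd, which breaks prostaglandins down, was at 5.86 against 8.60 (-2.74, and -1.56). The macrophage synthases Hpgds and Tbxas1 had -2.17 and -2.30. In all, 7 of 17 members were at least 2-fold higher and 3 lower. Ptger3, a prostaglandin E receptor, had a ratio of 2.82 from 1 of its 3 probe sets, and the lowest of the 3 ratios was -0.10.

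Hypoxia-inducible factor targets were mostly higher in SACCs of the plain pair and mostly lower in those of the ES pair. Of 20 measured, 16 had a ratio above 0 here (46.1% of all genes did) and 15 a ratio below 0 there, and the medians were 0.92 and -0.60. The ratio was larger here for 19 of 20. At least 2-fold higher here were 7, of which 5 had an ES-pair ratio below 0.5. The promoter of Ddit4, which had the largest ratio of the list and encodes an inhibitor of the growth kinase mTORC1, is shown with the core ACGTG of the hypoxia response element in capitals. It lies at chr10:59951721-59952020 on the minus strand of GRCm38.p6 (RefSeq), and the match begins at position -187.
Ddit4: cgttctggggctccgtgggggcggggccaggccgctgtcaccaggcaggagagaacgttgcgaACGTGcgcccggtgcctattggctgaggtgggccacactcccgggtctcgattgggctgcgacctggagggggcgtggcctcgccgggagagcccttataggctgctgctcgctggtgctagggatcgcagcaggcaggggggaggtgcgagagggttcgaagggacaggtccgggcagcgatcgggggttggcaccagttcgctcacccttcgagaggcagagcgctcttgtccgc
These 5 letters, on either strand, were in 14 of 17 list promoters (82.4%) and in 21.8% of all. They also form part of sites for other factors, so a match does not name the factor.

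Ddit4 was at 10.89 in SACCs and 8.09 in the control, 6.96-fold higher (ratio 2.80, and 1.58 in the ES pair). Vegfa, the main growth factor for blood vessels, was at 10.23 against 8.08, 4.44-fold higher (2.15), and at 8.15 against 8.25 in the ES pair (-0.10). P4ha2, a collagen prolyl hydroxylase, was at 10.17 against 8.15 (2.02, and 0.28). The vessel factor and the hydroxylase were thus near equal within the ES pair. Adm, the vasodilator adrenomedullin, was at 7.67 against 6.30 (1.37), and at 6.67 against 8.50 in the ES pair (-1.83). Egln3, an oxygen-sensing hydroxylase, was at 8.58 against 7.21 (1.37, and -0.51), and Bnip3, which directs removal of mitochondria, at 10.93 against 9.82 (1.11, and -1.13). Plod2, a collagen lysyl hydroxylase, was about as high in both pairs (1.90 and 1.87). Ndufa4l2, a mitochondrial protein known to be induced by low oxygen and not on the list, was at 8.76 against 6.01 (2.75, and -0.04).

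Not every gene of the response was higher. Car9, a carbonic anhydrase that is a classical target, was at 4.11 against 5.54 (ratio -1.43), with its SACC value below the median. Bnip3l and the kinase Pdk1 had -0.57 and -0.24. Hilpda, a lipid droplet gene named for its induction by hypoxia and outside this list, was at 8.84 against 10.13 (-1.29, and -0.02 in the ES pair). Glycolysis, which the factor also drives, had a median of 0.06 over 18 genes, with 1 member at least 2-fold higher (Pfkm, 1.09) and 1 lower (Aldoc, -1.85). The glucose transporter Slc2a1 was at 10.73 against 9.90 (0.83, and -0.47 in the ES pair). Hif1a itself had 0.93 and 0.89.

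**Figure D3:**
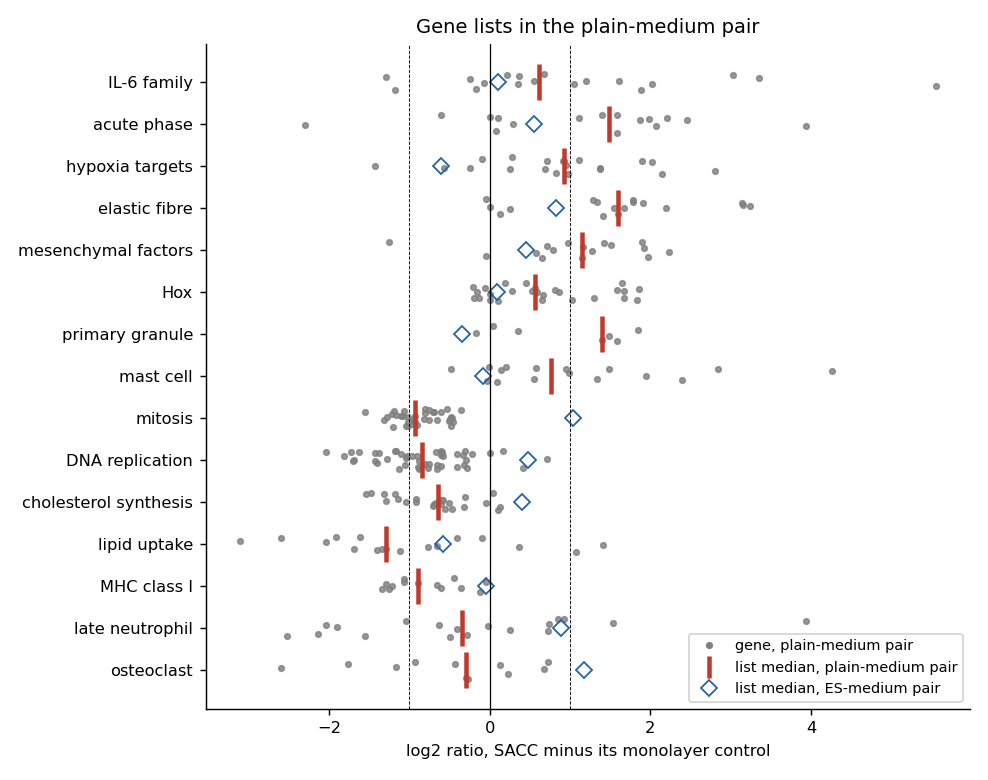
Log2 ratio of SACC minus control (x) for the genes of 15 lists (y), with the list median in the plain pair (red bar) and in the ES pair (blue diamond); dashed lines mark 2-fold. The medians of mitosis (-0.93 and 1.04), DNA replication (-0.84 and 0.48) and hypoxia targets (0.92 and -0.60) lay on opposite sides of 0.

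Early response transcription factors had ratios in both directions, and most did not reach 2-fold. Of 27 measured, 4 were at least 2-fold higher and 5 lower, and 24 had a larger ratio than in the ES pair (medians 0.07 and -0.84). The orphan nuclear receptors of the Nr4a family made up most of the 4 higher genes. Nr4a2 was at 9.49 against 6.31, 9.06-fold higher (ratio 3.18, and 0.66 in the ES pair), and Nr4a3 at 8.05 against 5.47 (2.58, and 0.61). Nr4a1 was at 11.19 against 9.89 (1.30, and -1.25), and the growth-induced factor Egr1 at 12.16 against 10.91 (1.25, and -1.35). The stress factor Atf3 (-2.25), the phosphatase Dusp1 (-1.98), the RNA-decay protein Zfp36 (-1.67) and the AP-1 subunit Fos (-1.41) were lower in both pairs.

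Growth factors that stroma sends to neighbouring cells were another group in which the pairs parted. Among epidermal growth factor ligands, Areg was at 7.97 against 4.62 (ratio 3.35, and 2.11 in the ES pair) and Ereg at 11.64 against 9.66 (1.98, and 0.05). Their receptor Egfr was at 9.99 against 7.27, 6.59-fold higher (2.72, and 0.46), with 4 of 5 probe sets above 0. The feedback inhibitor of that receptor, Errfi1, was at 10.47 against 8.90 (1.57, and 0.33). Ligand, receptor and inhibitor were thus each higher here, and 4 of 11 genes of the family were at least 2-fold higher and none lower.

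Of 26 fibroblast, platelet-derived, hepatocyte and vascular growth factor genes, 10 were at least 2-fold higher and 2 lower, and 20 had a larger ratio than in the ES pair. Fgf2 was at 10.19 against 8.03 (ratio 2.16, and 1.25 in the ES pair). Fgf7 and Fgf10, which act on epithelia, were at 10.27 against 8.49 (1.78, and -0.07) and at 6.45 against 4.64 (1.81, and -0.34). Spry2, a feedback inhibitor of these receptors, was at 8.71 against 7.46 (1.25, and -0.93), although its second probe set had 0.01. Relative to the array medians, Fgf7, Fgf10 and Spry2 were lowest on the plain control, at 4.15, 0.3 and 3.12. They lay at 5.92, 2.1 and 4.36 on its SACC array. In the ES pair they lay at 5.23, 2.03 and 4.29 in SACCs and at 5.23, 2.3 and 5.15 in the control. The hepatocyte growth factor Hgf was higher in both pairs (1.32 and 2.02). Its receptor Met was at 5.28 against 7.87, 6.02-fold lower, against an ES-pair ratio of -0.12. In the pair of ligand and receptor the receptor was thus the one that differed between pairs.

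Bone morphogenetic protein genes gave the largest turn among growth factors. Bmp2 was at 7.03 in SACCs and 3.97 in the control, 8.34-fold higher (ratio 3.06), from a control value below the median, and at 5.50 against 6.72 in the ES pair (-1.22). Its secreted antagonist Grem1 was at 11.70 against 9.97 (1.73), and at 11.73 against 12.55 in the ES pair (-0.82). Relative to the array medians, Grem1 was lowest on the plain control. Bmp4 was lower, at 4.83 against 5.95 (-1.12), and the target gene Id2 was at 9.09 against 10.96 (-1.87, and -2.24). Of 23 genes 7 were at least 2-fold higher and 2 lower. Rspo1, which strengthens Wnt signals, was at 6.73 against 3.66 (3.07, and 0.55), and Tgfbr3, the coreceptor betaglycan, at 11.46 against 8.94 (2.52, and 0.94). Among guidance proteins, Slit3 was at 10.49 against 8.28 (2.21, and 0.30), Slit2 at 9.07 against 7.95 (1.12, and -0.95) and the membrane-anchored Sema7a at 9.17 against 6.42 (2.75, and 1.03). Gfra2, a receptor for the neuronal factor neurturin, was at 7.62 against 5.31 (2.31, and -0.50).

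Fibroblast identity genes beyond collagen were higher here by more than in the ES pair for some groups. Of 17 elastic fibre genes 13 were at least 2-fold higher, with a median of 1.60 (0.83 in the ES pair). The median member lay 5.57 above the array median in SACCs and 3.87 in the control, against 5.41 and 4.46 in the ES pair. By this measure the SACC arrays were close, and the plain control was lower than the ES-pair control. Mfap5, a microfibril protein, was at 10.70 against 7.55 (ratio 3.15, and 0.67), and Efemp1, a fibulin, at 8.63 against 7.03 (1.60, and 0.33). Ltbp4, which stores transforming growth factor beta in the matrix, was at 7.73 against 6.18 (1.55, and 0.09). Mfap4 and Fbln1 were high in both pairs, with 3.24 and 3.14 here and 4.07 and 2.29 there. S100a4, a calcium-binding protein of fibroblasts and also of leukocytes, was the fibroblast marker at least 2-fold lower, at 10.11 against 11.96 (-1.85, and 0.37).

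Mesenchymal transcription factors had a median of 1.15 over 16 genes, with 9 at least 2-fold higher and 1 lower, and 15 of 16 had a larger ratio than in the ES pair (median 0.45). The median member lay 3.48 above the array median in SACCs and 2.28 in the control, against 3.60 and 2.96 in the ES pair. Here too the SACC arrays were close by this measure, and the plain control was the lower control. Prrx1, a limb and connective tissue homeobox factor, was at 10.95 against 8.98 (ratio 1.97, and 0.27), with 5 of 6 probe sets above 0. Twist2 was at 9.65 against 7.75 (1.90, and 0.34) and Zeb1 at 8.90 against 7.62 (1.28, and 0.43), with 3 of 4 Zeb1 probe sets above 0. Snai1 was high in both pairs (2.23 and 2.02). Zeb2, which macrophages also express, was lower (-1.25). Tbx18, a T-box factor of mesenchyme that was outside the list, was at 6.74 against 3.99 (2.75, and 0.44).

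Hox genes, which record position along the body axis, followed. Of 26 measured, 8 were at least 2-fold higher and none lower, with a median of 0.57 (0.09 in the ES pair) and 22 larger than there. They came from the front and middle of the clusters, such as Hoxb6 at 8.38 against 6.52 (ratio 1.86), Hoxa5 at 8.74 against 6.91 (1.83) and Hoxb5 at 6.25 against 4.58 (1.67, and -0.04). Of the 26, 8 were below the median on both arrays. Among imprinted genes, the noncoding RNA Meg3 was at 11.34 against 9.08, 4.79-fold higher (2.26, and -0.28), with all 10 probe sets above 0, while H19 and Peg3 were high in both pairs. For Igfbp5, a binding protein of insulin-like growth factors, the 2 probe sets disagreed in size, with ratios of 0.40 and 6.29.

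Mitosis genes were lower in SACCs of the plain pair, every one of them by the probe set used. All 37 mitosis genes had a ratio below 0, where 52.4% of all genes did, with a median of -0.93. In the ES pair 36 of them had a ratio above 0, with a median of 1.04. Here 14 were at least 2-fold lower and none higher, and all 14 had an ES-pair ratio above -0.5. With the mean of all probe sets of a gene in place of its highest, 5 were at least 2-fold lower. For Cenpf and Kif23, 2 of 3 probe sets each were below 0, and the highest had 0.05. The control of the plain pair and the SACC array of the ES pair stood highest. The median mitosis gene lay 2.72 above the median on that control and 1.89 on its SACC array, against 1.36 on the ES-pair control and 2.77 on its SACC array. SACCs in plain medium therefore lay above the ES-pair control and below the plain control.

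**Figure D4:**
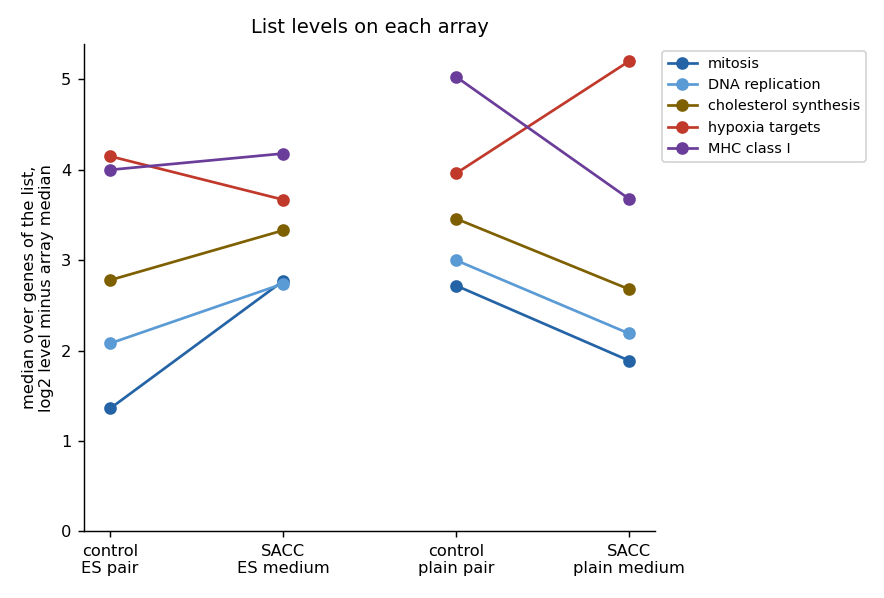
Median over the genes of a list of the log2 level minus the array median (y) on each of the 4 arrays (x), for 5 lists; lines join the arrays of a pair. Mitosis stood at 1.36, 2.77, 2.72 and 1.89 from left to right, and hypoxia targets were highest on the SACC array in plain medium, at 5.20.

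The promoter of Kif11, a spindle motor gene, is shown with the cell cycle homology region in capitals, an element that holds cell cycle genes off in resting cells. It lies at chr19:37376132-37376431 on the plus strand of GRCm38.p6 (RefSeq), and the match begins at position -19 and reads TTTGAA on the other strand.
Kif11: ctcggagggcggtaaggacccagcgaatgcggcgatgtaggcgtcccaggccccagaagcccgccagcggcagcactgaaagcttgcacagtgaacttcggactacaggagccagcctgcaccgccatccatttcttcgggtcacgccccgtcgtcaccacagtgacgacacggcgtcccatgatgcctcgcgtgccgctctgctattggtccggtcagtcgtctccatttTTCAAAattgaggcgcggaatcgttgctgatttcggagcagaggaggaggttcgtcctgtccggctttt
On both strands TTTGAA was found in 23 of 30 list promoters (76.7%) and 20.2% of all, and CCAAT in 25 of 30 (83.3%) and 41.1% of all. Kif11 was at 4.84 in SACCs and 6.15 in the control (ratio -1.31, and 0.72 in the ES pair). Aurkb, a kinase of chromosome alignment, was at 5.41 against 6.96, 2.93-fold lower (-1.55, and 0.61). Ccna2, the cyclin of S phase and entry into mitosis, was at 7.46 against 8.74 (-1.28, and 1.52), and Mki67, the proliferation marker Ki-67, at 8.0 against 9.21 (-1.21, and 0.74). All 4 were thus lower in SACCs here and higher in SACCs of the ES pair. Top2a and Birc5, a topoisomerase and the survivin gene, had -1.02 each here and 1.30 and 1.01 there.

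DNA replication genes were lower by as much. Of 46, 18 were at least 2-fold lower and none higher, 42 had a ratio below 0, and the median was -0.84 (0.48 in the ES pair). The median member lay 2.19 above the array median in SACCs and 3.0 in the control, against 2.74 and 2.08 in the ES pair. By this measure the plain control was the highest array, and its SACC array lay close to the ES-pair control. All 18 genes at least 2-fold lower had an ES-pair ratio above -0.5. The promoter of Mcm5, a subunit of the replicative helicase, is shown with the E2F element in capitals, at chr8:75109259-75109558 on the plus strand of GRCm38.p6 (RefSeq). The match begins at position -149 and reads TTTGGCGC on the other strand.
Mcm5: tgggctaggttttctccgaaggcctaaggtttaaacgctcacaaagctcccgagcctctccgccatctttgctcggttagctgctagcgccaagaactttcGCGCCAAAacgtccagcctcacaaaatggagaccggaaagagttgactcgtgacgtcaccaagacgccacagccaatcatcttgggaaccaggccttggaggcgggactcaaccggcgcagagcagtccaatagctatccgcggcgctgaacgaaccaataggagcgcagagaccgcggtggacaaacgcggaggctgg
These letters, on either strand, were in 8 of 37 list promoters (21.6%) and in 0.585% of all. Pcna, the sliding clamp of DNA polymerase, was at 10.17 in SACCs and 12.21 in the control, 4.11-fold lower (ratio -2.04), and at 10.06 against 10.33 in the ES pair (-0.27). The plain control was the highest of the 4 arrays for this gene. Mcm5 was at 7.11 against 8.92 (-1.81, and 0.47), and the helicase subunits Mcm3 and Mcm6 had -1.70 and -1.63. Rrm2, a subunit of ribonucleotide reductase, was at 7.59 against 9.28 (-1.69, and 1.15), and Tk1, thymidine kinase, at 6.54 against 8.26 (-1.72, and 1.07). The licensing factor Cdt1 had -1.43 and the DNA methylation cofactor Uhrf1 -1.40.

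Genes of homologous recombination and the Fanconi pathway, which are expressed in S phase, had a median of -0.56 over 18 genes (0.56 in the ES pair), and all 18 were below 0. Brca1 was at 4.73 against 6.46 (ratio -1.73, and 0.27), with 3 of 4 probe sets below 0. Among inhibitors of cyclin-dependent kinases and growth arrest genes, 2 of 13 were at least 2-fold higher. Cdkn2b was at 8.02 against 6.47 (1.55) and Gas1 at 11.85 against 9.30 (2.55), and both were also high in the ES pair (1.14 and 2.40).

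Cholesterol synthesis genes were mostly lower in SACCs here, as cell division genes were. Of 24, 21 had a ratio below 0 here and 21 a ratio above 0 in the ES pair, with medians of -0.64 and 0.40, and all 24 had a smaller ratio here. At least 2-fold lower were 7, and 3 with the mean of all probe sets. Hmgcs1 is an early enzyme of the mevalonate pathway, and its promoter is shown with the sterol regulatory element in capitals, at chr13:119690101-119690400 on the plus strand of GRCm38.p6 (RefSeq), from position -137.
Hmgcs1: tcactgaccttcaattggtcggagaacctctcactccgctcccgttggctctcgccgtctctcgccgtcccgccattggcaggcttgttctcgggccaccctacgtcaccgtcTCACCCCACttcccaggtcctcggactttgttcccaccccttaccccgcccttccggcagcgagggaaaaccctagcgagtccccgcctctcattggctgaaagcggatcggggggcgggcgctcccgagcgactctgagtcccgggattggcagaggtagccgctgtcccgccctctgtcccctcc
The letters TCACNCCAC were found, on either strand, in this promoter alone of 16 (6.25%) and in 1.44% of all. CCAAT was in 15 of 16 (93.8%) and in 41.1% of all. Hmgcs1 was at 9.01 against 9.62 (ratio -0.61, and 0.67 in the ES pair). Msmo1, a sterol oxidase, was at 7.65 against 9.19 (-1.54, and 0.13), although its second probe set had 0.07. Dhcr7, the last enzyme of cholesterol synthesis, was at 6.51 against 7.99 (-1.48, and -0.06). Sqle, squalene epoxidase, had -1.18 and 0.64, and the sterol sensor Insig1 -1.04 and 0.02. Fatty acid synthesis had a median of 0.16 over 14 genes, none at least 2-fold lower and 3 higher, led by the desaturase Scd1 at 9.97 against 7.18 (2.79).

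Genes of lipid uptake and storage were lower here for 14 of 17 members, 10 of them at least 2-fold, with a median of -1.29 (-0.58 in the ES pair). Many are abundant in macrophages. Fabp4, a fatty acid-binding protein of fat cells and macrophages, was at 8.94 against 10.85 (ratio -1.91, and -0.04). Msr1, a scavenger receptor, was at 8.46 against 11.06 (-2.60, and -0.97), and Pparg, the lipid-sensing nuclear receptor, at 4.58 against 6.19 (-1.61, and -1.02). The lipid droplet genes Plin2 and Hilpda, at 11.57 against 12.68 and 8.84 against 10.13, had -1.11 and -1.29 here and -0.02 each there. The droplet genes and Fabp4 were thus near equal within the ES pair, and the part of cell makeup in these ratios was not tested. Relative to the array medians, Fabp4 lay at 4.59 in SACCs and 6.51 in the control, against 5.03 and 5.0 in the ES pair. Plin2 lay at 7.22 and 8.34, against 7.57 and 7.52, and Hilpda at 4.49 and 5.79, against 3.14 and 3.09. For each of them the plain control was the highest array. Vldlr, a lipoprotein receptor, was higher, at 8.04 against 6.63 (1.41, and -0.58).

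**Figure D5:**
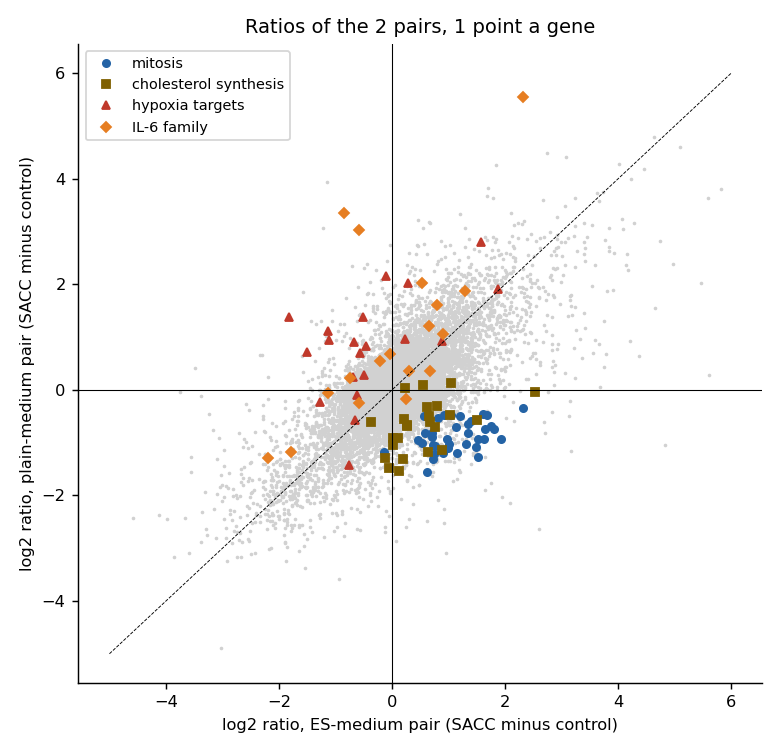
Log2 ratio of SACC minus control in the ES pair (x) and in the plain pair (y), 1 point a gene, with 4 lists in colour; the dashed line marks equal ratios. Mitosis and cholesterol synthesis genes lay mostly below 0 on the y axis and above 0 on the x axis, and 19 of 20 hypoxia targets lay above the line of equal ratios.

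Class I antigen presentation was lower in SACCs of the plain pair. All 13 genes had a ratio below 0, 6 at least 2-fold, with a median of -0.89 (-0.04 in the ES pair), and all 13 had a smaller ratio here. The class I heavy chains H2-D1 and H2-K1 were at 11.60 against 12.67 (ratio -1.07, and -0.88) and 11.23 against 12.12 (-0.89, and -0.48), and they are near-identical copies whose probes may share signal. Psmb8, a subunit of the immunoproteasome that makes class I peptides, was at 8.03 against 9.37 (-1.34, and 0.11), and Erap1, which trims them, at 6.02 against 7.31 (-1.29, and -0.04). The sum of linear levels of the list was 24090 in the plain control, against 13670 to 16180 on the other 3 arrays, so the plain control stood apart. Class II genes had a median of -0.42 over 12 genes, close to the -0.38 of the ES pair.

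Interferon-stimulated genes differed in both directions. Of 34, 6 were at least 2-fold higher and 6 lower, with a median of 0.02, where the ES pair had 0.73 with 13 higher and none lower. Iigp1, a GTPase against parasites, was at 7.78 against 4.21 (ratio 3.57), Ifi44 at 6.17 against 3.13 (3.04) and Ifit1, which binds viral RNA, at 7.22 against 5.51 (1.71). All 3 had larger ratios in the ES pair (3.66, 4.08 and 3.15). On the lower side, Ifi27l2a was at 8.16 against 9.67 (-1.51, and 1.18), the antiviral enzyme Rsad2 at 6.17 against 7.56 (-1.39, and 0.46) and the RNA sensor Oas1a at 8.12 against 9.27 (-1.15, and -0.12).

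Myeloid granule genes differed in both directions. Of 18 late neutrophil genes 6 were at least 2-fold lower and 2 higher, with a median of -0.34 (0.89 in the ES pair). Ltf, lactoferrin of the secondary granule, was at 5.37 in SACCs and 7.89 in the control (ratio -2.52, and 0.92), Ngp at 6.99 against 9.13 (-2.14, and 2.08) and Mmp8, the neutrophil collagenase, at 6.83 against 8.73 (-1.90, and 1.64). S100a9, a calcium-binding alarm protein, was at 9.49 against 10.53 (-1.04), and at 8.17 against 3.35 in the ES pair (4.82). For S100a9 the control of the ES pair stood apart from the other 3 arrays, below its array's median. Lcn2 and Camp, at 8.19 against 6.65 (1.54), were the members at least 2-fold higher, and Lcn2 is also made by stromal and epithelial cells. Primary granule genes, which are made earlier, were higher for 6 of 7, 4 of them at least 2-fold, with a median of 1.4 (-0.34). Their summed linear level was 4663 in SACCs and 4867 in the control. That list also held Calr, which is on the unfolded protein response list too. Prtn3, proteinase 3, was at 8.05 against 6.2 (1.85), and Mpo, myeloperoxidase, at 6.32 against 4.73 (1.59, and -0.34).

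Mast cell and basophil genes were higher for 6 of 16 members at 2-fold, with a median of 0.76 (-0.08 in the ES pair) and a summed linear level of 1220 against 294. Cpa3, the mast cell carboxypeptidase, was at 7.02 against 4.63 (ratio 2.39, and -0.44), and the proteases Mcpt2 and Mcpt4 at 6.86 against 4.02 (2.84, and 1.67) and 5.40 against 3.46 (1.94, and -0.61). Without Il1rl1, which fibroblasts also make, the sum over the other 15 members was 603 against 262. The IgE receptor chain Ms4a2 was at 2.87 and 2.73, and 7 of 16 members lay below the median on both arrays. With values below the median raised to it, the list median was 0.15.

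Among macrophage and osteoclast genes, a few parted from the ES pair. Marco, a scavenger receptor of marginal zone macrophages in the spleen, was the macrophage gene that was higher, at 8.16 against 5.44, 6.59-fold (ratio 2.72, and 0.93). Vsig4, a complement receptor of resident macrophages, was at 5.99 against 8.58, 6.02-fold lower, against an ES-pair ratio of 0.25. Havcr2, the inhibitory receptor TIM-3 and outside the macrophage list, was at 4.86 against 7.72 (-2.86, and 0.07). Macrophage genes as a whole had similar medians in both pairs, and these 3 differed more between the pairs. Relative to the array medians, Vsig4 lay at 1.64 in SACCs and 4.24 in the control, against 2.09 and 1.77 in the ES pair. Havcr2 lay at 0.51 and 3.38, against 0.74 and 0.60. By this measure the plain control was the highest array for both genes. Osteoclast genes had a median of -0.29 over 11 genes, against 1.17 in the ES pair. Acp5, tartrate-resistant acid phosphatase, was at 8.20 against 9.36 (-1.16, and 3.17). Endothelial genes had a median of 0.08 over 19 genes, with 3 at least 2-fold lower and 0 higher. Of these, Vwf and Emcn were at 3.67 against 6.03 (-2.36, and -0.88) and 3.72 against 5.81 (-2.09, and 0.82), with both SACC values below the median.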

How the data were processed

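Total RNA of cultured C57BL/6J spleen cells was turned into biotinylated cRNA for Affymetrix arrays, per the labels' protocols. The authors deposited log2 values for each probe set, with the plain pair in a table of its own, and a series-wide table held identical numbers. Transcriptome Analysis Console is named without a version in the submitters' processing notes, and the way probe signals were summarised and normalized is not given in the sources used here. Groups and references came from the labels. Ratios were taken within a table, in Python 3.11.15 with pandas 2.3.3, numpy 2.4.6 and matplotlib 3.10.9. With 1 array a side, the array number limits the precision. Detection calls were not used.

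Of 45037 probe sets 36109 had a single symbol, updated through a RefSeq gene table. Of 9058 genes with several probe sets, 3681 had both signs. The 78 gene lists held 1450 entries, of which 1413 were measured. Members, lists and rules were chosen with earlier results of these data known. Genes were named by rule: the 15 highest and 15 lowest ratios and the 20 most specific to the pair each way among genes at least 4-fold above an array median, in each list as many as 6 genes by size of ratio, and 10 fixed genes, leaving out predicted, clone and receptor-segment symbols. The others, such as Socs3, Stat3, Jak1, Jak2, Hif1a, Hmgcs1, Top2a, Birc5 and Bnip3, were chosen after their values were seen. Some list genes are not reported here. Alternatives were centring, quantile normalization, filters and floors at the median, folds of 1.5 and 4, and other ways to represent a gene.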

Additional observations from a re-analysis of the deposited data

Results flagged for a closer look

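The results below drew attention because the SACC array and its control differed in opposite directions in the plain pair and the ES pair, for single genes by at least 2-fold in each. The difference between the pairs was not tested, since each ratio rests on 1 array a side. Of 24 such genes reported here, 16 were lower and 8 higher in the plain pair. Over all 19747 genes with a symbol, 30 were lower here and higher there, and 11 the reverse.

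Lower here and higher in the ES pair were genes of cell division: Ccna2 (-1.28 and 1.52), Bub1 (-1.08 and 1.48), Cep55 (-1.24 and 1.43), Ndc80 (-1.12 and 1.53), Nusap1 (-1.2 and 1.15), Rrm2 (-1.69 and 1.15) and Tk1 (-1.72 and 1.07). A second group was of myeloid cells: S100a9 (-1.04 and 4.82), Stfa2l1 (-2.64 and 2.60), Ngp (-2.14 and 2.08), Chil3 (-2.04 and 1.94), Mmp8 (-1.90 and 1.64) and Acp5 (-1.16 and 3.17). S100a9, Stfa2l1, Ngp, Chil3 and Ndc80 lay below the array median on the control array of the ES pair (-1.24, -2.25, -0.85, -2.13 and -0.3 relative to it), and Chil3 also on its SACC array (-0.12). The others were Ifi27l2a (-1.51 and 1.18), Tmem26 (-1.55 and 1.2) and Tnfrsf21 (-1.77 and 1.75).

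Higher here and lower in the ES pair were Lcn2 (3.94 and -1.15), Bmp2 (3.06 and -1.22), Cx3cl1 (1.86 and -1.58), Susd2 (1.51 and -1.07), Adm (1.37 and -1.83), Phlda1 (1.31 and -1.06), Nr4a1 (1.30 and -1.25) and Egr1 (1.25 and -1.35). Bmp2 lay below the array median on the plain control array (-0.37). The list medians that were opposite in sign and at least 0.5 in size in each pair were those of mitosis (-0.93 and 1.04), of homologous recombination and Fanconi repair (-0.56 and 0.56) and of hypoxia targets (0.92 and -0.60).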

How the results depend on the processing

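Every value rests on 1 array a side, and the spread between cultures is unknown. Counts depended on the fold chosen. At 1.5-fold 4425 probe sets were higher and 3885 lower, and at 4-fold 389 and 333, against 2111 and 1782 at 2-fold. With 1 probe set per gene the counts were 1180 and 1031. Genes past the fold here and within the bound in the ES pair numbered 742 higher and 899 lower at 1.5-fold and 27 and 22 at 4-fold, against 238 and 283. With the mean of all probe sets of a gene, 5 mitosis genes and 3 cholesterol synthesis genes were at least 2-fold lower, against 14 and 7, since that mean includes probe sets with smaller ratios. Centring, quantile normalization, the filter, the floor at the median and the series-wide table, where each was run, moved no count by over 1.5 times. Of 462 named genes 389 stayed within 1.5-fold of their ratio under all alternatives, and of 338 past 2-fold 299 stayed past it. Values below the median limit the mast cell list, whose median was 0.15 with such values raised to the median. No paired analysis was possible because each group has 1 array.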

Other observations

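Genes of amino acid synthesis and transport under ATF4, a stress factor, had a median ratio of 0.56 over 27 members, with 7 at least 2-fold higher in SACCs and none lower, and the ES pair had 0.47 with 2 higher. Cth, which makes cysteine, was at 7.14 in SACCs and 4.89 in the control (ratio 2.25, and 0.74 in the ES pair). Aldh1l2, a mitochondrial folate enzyme, was at 8.56 against 6.51 (2.05, and 1.94). The unfolded protein response had a median of 0.05 over 17 genes, 1 of them at least 2-fold lower and none higher. All 13 heat shock genes were above 0, with 3 at least 2-fold higher, such as Hspa1b at 9.12 against 6.86 (2.26, and 0.49), whose near-identical copy Hspa1a had 1.76.

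Lysosome genes were lower for 25 of 28 members, 11 of them at least 2-fold, with a median of -0.77 (-0.57 in the ES pair). Gla, a lysosomal galactosidase, was at 7.87 against 9.36 (-1.49, and -0.01), and its 3 probe sets ranged from -1.49 to -0.02. Gaa, the acid glucosidase, was the member at least 2-fold higher, at 9.87 against 8.65 (1.22). Mitochondrial respiration and ribosome biogenesis had medians of -0.17 and -0.04 here and 0.35 and 0.32 in the ES pair, and none of their 25 and 20 genes reached 2-fold here. Melanocyte genes, which had a median of -1.88 in the ES pair, had -0.24 here, and 6 of 12 lay below the median on both arrays. Tnfsf11, the osteoclast differentiation factor, was at 5.11 against 3.09 (2.02, and 5.46), from a control value below the median. Insulin-like growth factor genes Igf1 and Igfbp2 were at 10.01 against 11.71 (-1.70, and -0.71) and 5.73 against 7.73 (-2.0, and -0.40), while Igfbp3 was at 10.58 against 7.72 (2.86, and 1.36).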
